A study of Homo sapiens with 6 samples.

Results

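Aminoacyl-tRNA synthetases load each tRNA with its amino acid and so supply every substrate of the ribosome. The genes followed here were 35 listed members of the family, found by their current or older symbol through the Ensembl identifier. A total of 34 matched the 19493 genes with values, 19 for cytosolic and 15 for mitochondrial enzymes, and MARS2 was not analysed here. The cytosolic enzymes have symbols ending in 1, beside FARSA and FARSB, the subunits of the phenylalanine enzyme. The mitochondrial enzymes, which have symbols ending in 2, are encoded in the nucleus and imported to serve the ribosomes of the mitochondrion. GARS1 and KARS1 each encode the enzyme of both compartments and were counted with the cytosolic set. Several cytosolic enzymes are held together in a multi-synthetase complex by scaffold proteins. When amino acids run short, uncharged tRNA activates the kinase GCN2, translation of the transcription factor ATF4 rises, and many cytosolic synthetase genes are among the targets of ATF4.

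RNA was sequenced from HaCaT, an immortalised human keratinocyte line, made to express a CPD photolyase taken from Potorous tridactylus, a marsupial. This enzyme splits cyclobutane pyrimidine dimers, the main DNA lesion of UVC light, when visible light drives it. There were 3 groups of 2 libraries, all carrying the photolyase: untreated cells with the enzyme inactive (control), cells given 15 J/m2 of UVC at 254 nm with the enzyme inactive and harvested 6 h later (UVC), and cells given the same dose with the enzyme activated by 2 h of white light (active photolyase). White light was given only to the last group, so photolyase activity and light cannot be told apart. Whether the line is a clone, and whether replicates were separate cultures, is not given in the sources used here. The p-values set a difference between groups against the spread between these libraries, and that spread could be technical. For each gene the spread was taken over the 3 groups together and drawn toward that of other genes.

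Total counts were 57669389 to 70005705 per library, and the lowest count of a member was 252 (PARS2). Levels are given as scaled cRPKM, the deposited corrected RPKM (a read count normalised to gene length and library depth) divided by the library's scaling factor. They can be compared between genes and libraries. All 12 keratinocyte markers passed the filter of 1 cRPKM in at least 2 libraries, and their levels summed to 14384 to 15116 scaled cRPKM in control, 11933 to 12247 in the UVC libraries and 14801 to 14925 in those with active photolyase. After UVC 9 of these 12 markers were called lower, 5 of them by 2-fold or more, against 43.1% and 18.6% of all tested genes. KRT5 (0.32) and KRT15 (0.40) were called higher, against 42.5% of all tested genes, and ITGB4 (0.14) was not called. The median log2 change of the 12 was -0.59 (-2.94 in DSG3), which is close to the cytosolic synthetase median given below as -0.68. When scaled by library totals instead, 6 of the 12 were lower, 4 higher and 2 not called, with a median of -0.17. On that scale 3546 of 11926 tested genes were lower and 7091 higher. The sums over 7 melanocyte markers (1.35 to 2.25) and 9 fibroblast markers (7.45 to 10.2) were low, with TYR at 0 in every library. The 11 immune cell markers summed to 133 and 146 (control), 182 and 183 (UVC), and 188 and 199 (active photolyase), nearly all of it CD68 and CD74, while MS4A1 and NKG7 were at 0. The part of these marker differences in the results was not tested. In bulk RNA, fewer cells expressing a gene and less of its RNA per cell cannot be told apart.

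All 34 matched members passed the filter. In control the cytosolic mRNAs ran from 9.67 (VARS1) to 701 (WARS1) scaled cRPKM with a median of 78.2, and the mitochondrial mRNAs from 1.45 (AARS2) to 42.7 (IARS2) with a median of 5.54. Summed over the set, the cytosolic enzymes came to 1995 and 2095 (control), 1122 and 1141 (UVC), and 1712 and 1786 (active photolyase). The mitochondrial enzymes summed to 145 and 144, then 121 and 122, then 114 and 117. The cytosolic sum was thus lowest after UVC and intermediate with active photolyase, whereas the mitochondrial sum was lowest with active photolyase. The fall of the mitochondrial sum after UVC rests on the scaling factors (0.887 and 0.885 in control, 1.18 in both UVC libraries). As deposited, that sum was higher after UVC than in control. WARS1 and IARS2 made up a large part of their sums. The ratio of the sums, which no scaling of libraries can change, was 13.7 and 14.6 (control), 9.28 and 9.35 (UVC), and 15.1 and 15.2 (active photolyase).

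**Figure D1:**
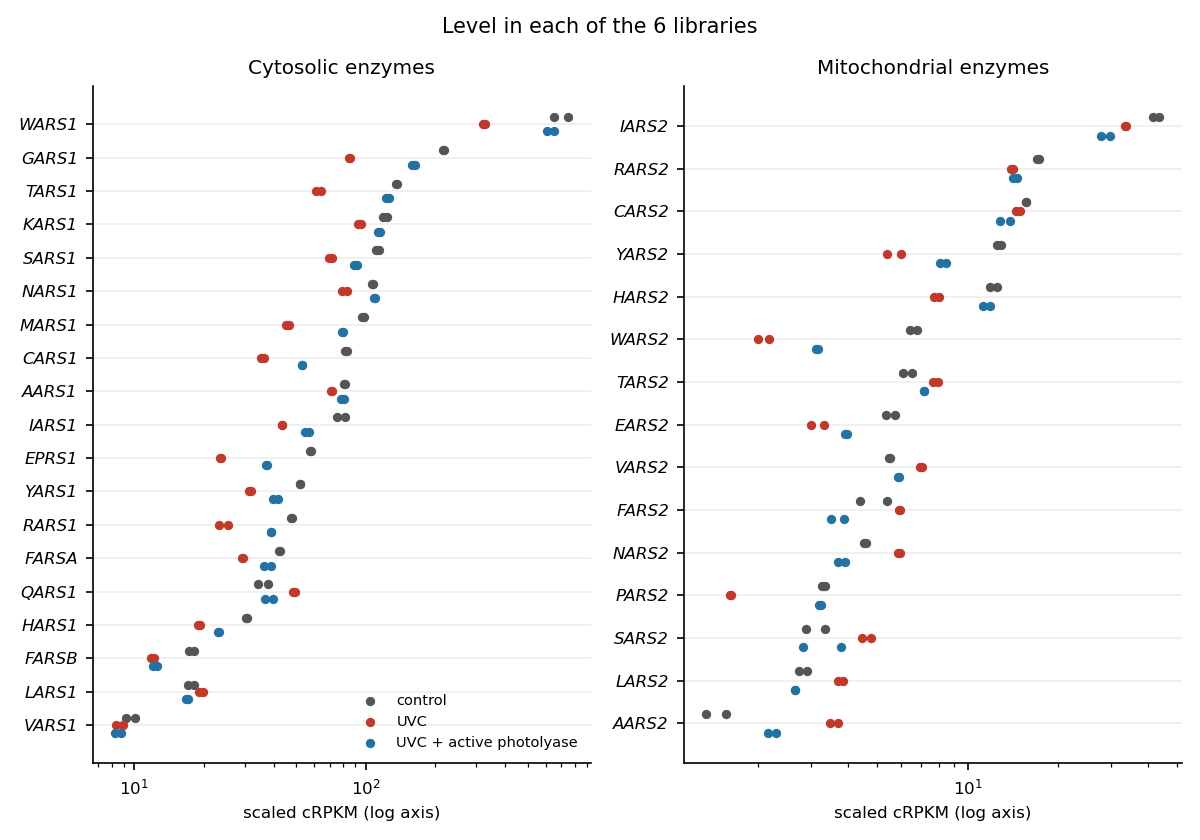
Scaled cRPKM (log axis) of the 34 members, 1 row per gene ordered by control level, with 1 point per library (2 per group). Cytosolic mRNAs after UVC (red) lie left of control (grey) except QARS1 and LARS1, while the mitochondrial mRNAs lie on either side.

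The effect of UVC on these mRNAs was read from the UVC and control libraries. Of 19 cytosolic enzymes, 17 fell and 2 rose, at an adjusted p under 0.05 by edgeR's quasi-likelihood test. Of 15 mitochondrial enzymes, 7 fell, 7 rose and CARS2 was not called (-0.088 ± 0.06, SE). Across all 11926 tested genes 85.6% were called, 43.1% lower and 42.5% higher, so a call as such was common and the direction and size carry the comparison. The median log2 change was -0.68 over the cytosolic set, -0.088 over the mitochondrial set and 0.00 over all tested genes. Falls of at least 2-fold were made by 6 cytosolic and 3 mitochondrial enzymes, against 18.6% of all tested genes. AARS2 alone rose by 2-fold or more, against 9.89% of tested genes. Scaling by library totals in place of trimmed means raised every change by about the same step, to medians of -0.27, 0.33 and 0.42. With library totals 12 of the 17 cytosolic falls were still called as falls, while AARS1 (0.23) and VARS1 (0.26) were called as rises, and all tested genes then had 7091 rises and 3546 falls. The distance between the cytosolic and mitochondrial medians was -0.59 with either scaling. That distance has no test, since genes of a set are not replicates.

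Among cytosolic enzymes outside the complex, all 12 were called lower, against 43.1% of all tested genes. With library totals 8 were lower, 2 higher and 2 not called, beside 3546 lower and 7091 higher of 11926 tested genes. GARS1, which charges glycine tRNA in both compartments, was at 217 and 217 scaled cRPKM in the control libraries, 84.5 and 85.5 in the UVC libraries, and 158 and 163 in those with active photolyase. The UVC libraries lay well below control and the active-photolyase libraries lay between. The log2 change after UVC was -1.35 ± 0.05 (adjusted p = 1.26e-11 by edgeR). CARS1, the cysteine enzyme, was at 81.2 and 82.7, then 35.3 and 36.2, then 53.0 and 53.1 (-1.20 ± 0.05 after UVC). WARS1, the tryptophan enzyme and also known as an interferon-induced gene, was the most abundant member, at 651 and 750.4 (control), 319.9 and 328 (UVC), and 605 and 653 (active photolyase). The change of WARS1 after UVC was -1.11 ± 0.07, and its active-photolyase values overlapped those of control. TARS1, the threonine enzyme, was at 135 and 137, then 60.7 and 63.99, then 122 and 126 (-1.12 ± 0.05 after UVC). The smallest falls of the set were those of AARS1 (-0.18 ± 0.05) and VARS1 (-0.16 ± 0.06), which charge alanine and valine tRNA, and both turned to rises with library totals. The VARS1 call was also lost without control replicate 2 (-0.088), UVC replicate 2 (-0.11) or active-photolyase replicate 2 (-0.12).

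Members of the multi-synthetase complex went both ways: of the 7 followed, 5 fell and 2 rose. Of all tested genes 43.1% were lower and 42.5% higher. With library totals 4 of the 7 were lower, 2 higher and 1 not called, beside 3546 lower and 7091 higher of 11926 tested genes. The median log2 change was -0.84 in the complex and -0.68 in the 12 enzymes outside it, a division made after values were seen. EPRS1, which joins the glutamate and proline activities in a single protein, was at 57.8 and 57.9 (control), 23.5 and 23.6 (UVC), and 37.2 and 37.3 (active photolyase). Its UVC change of -1.30 ± 0.05 (adjusted p = 1.16e-11 by edgeR) was the largest fall in the complex. MARS1, the methionine enzyme, whose gene overlaps DDIT3 on the opposite strand, was at 96.3 and 98.8, then 45.4 and 46.6, then 78.7 and 79.8 (-1.08 ± 0.05). RARS1 (-0.97 ± 0.05) and IARS1 (-0.84 ± 0.05), for arginine and isoleucine, fell as well. KARS1, the lysine enzyme of both compartments, fell less, from 124 and 119 to 95.4 and 93.02 (-0.37 ± 0.05), a value that library totals turned to 0.050 with no call (adjusted p = 0.372). QARS1, the glutamine enzyme, went the other way, from 37.9 and 34.2 to 49.4 and 48.7, a rise of 0.44 ± 0.06 (adjusted p = 8.83e-06 by edgeR), and came to 36.8 and 39.96 with active photolyase. LARS1, the leucine enzyme and a known leucine sensor, rose by 0.14 ± 0.05, a call that was lost without control replicate 1 (0.10) or UVC replicate 2 (0.11). For the 3 scaffold genes of the complex the direction depended on scaling. AIMP1 (-0.15 ± 0.06), AIMP2 (-0.29 ± 0.08) and EEF1E1 (-0.26 ± 0.08) were each called lower, at 89.9, 81.6 and 83.7% of the control mean. With library totals AIMP1 was called higher (0.26) and AIMP2 (0.12) and EEF1E1 (0.16) were not called.

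**Figure D2:**
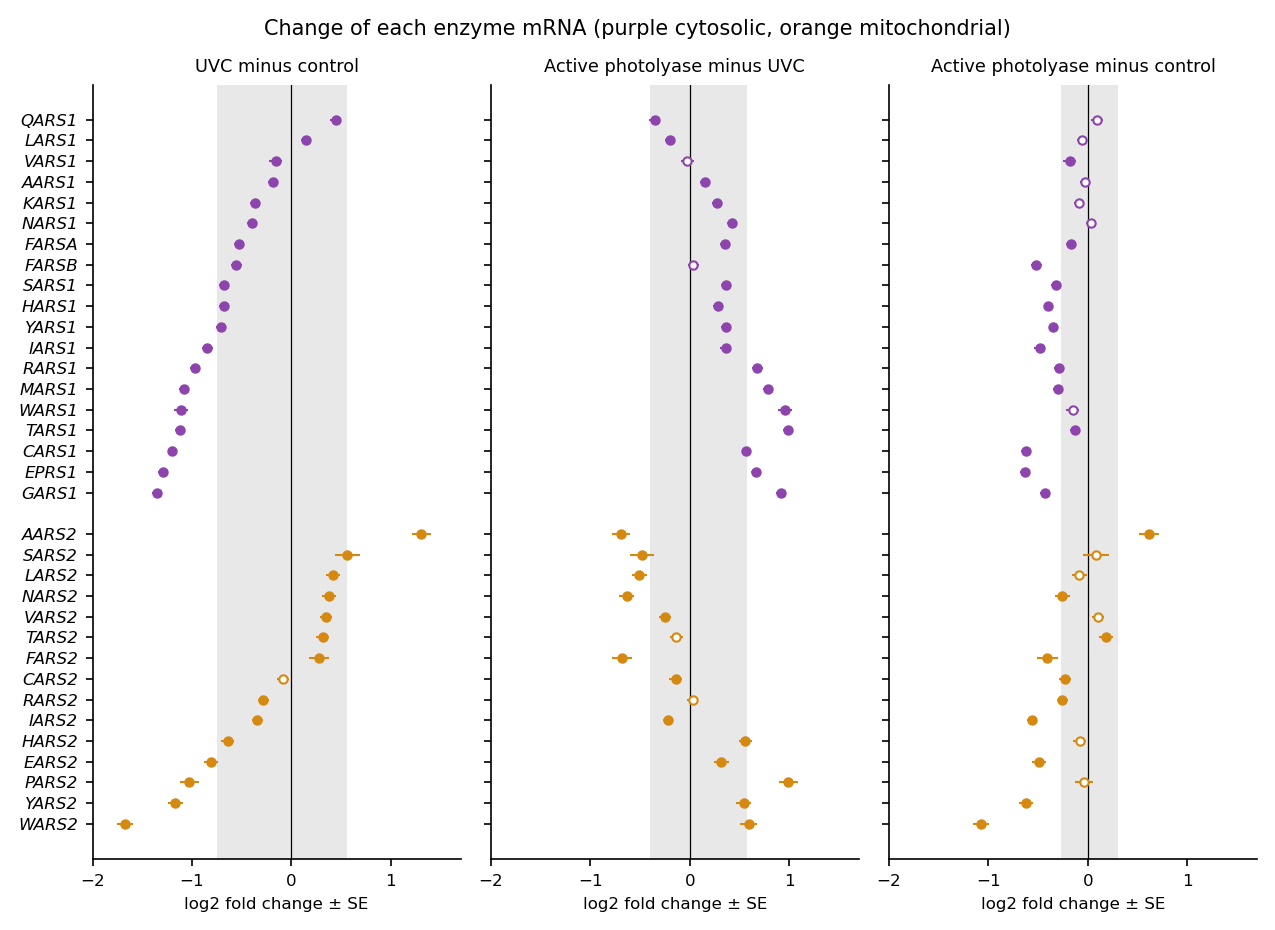
Log2 fold change with its SE for each member in the 3 comparisons, cytosolic above and mitochondrial below, ordered by the change after UVC. Filled points were called, open points were not, and the grey band holds the middle 50% of all tested genes. In the first panel 17 of 19 cytosolic points lie left of 0, and in the third all cytosolic points but VARS1 lie nearer to 0 than in the first.

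The mitochondrial enzymes spread widely after UVC, from -1.67 to 1.31. WARS2, the mitochondrial tryptophan enzyme, had the largest fall of all members. Its levels were 6.80 and 6.43 scaled cRPKM (control), 1.99 and 2.17 (UVC), and 3.11 and 3.18 (active photolyase), so that the 3 groups did not overlap. The fall was -1.67 ± 0.08 (adjusted p = 2.09e-10 by edgeR), to 31.4% of the control mean. YARS2, the tyrosine enzyme, fell from 12.6 and 12.9 to 5.38 and 5.98 (-1.17 ± 0.07), and PARS2, the proline enzyme, fell by 1.03 ± 0.10. AARS2, the alanine enzyme and the least abundant member, rose from 1.34 and 1.56 to 3.70 and 3.48, a change of 1.31 ± 0.10 (adjusted p = 1.60e-08 by edgeR), and was at 2.15 and 2.29 with active photolyase. NARS2, the asparagine enzyme, rose from 4.57 and 4.50 to 5.85 and 5.93 (0.38 ± 0.07). VARS2 rose from 5.48 and 5.52 to 7.06 and 6.95 (0.35 ± 0.06), and TARS2 from 6.08 and 6.52 to 7.69 and 7.96 (0.31 ± 0.07). SARS2 (0.56 ± 0.13), LARS2 (0.42 ± 0.07) and FARS2 (0.28 ± 0.10) were the other rises. With library totals the 7 rises and 5 of the 7 falls kept their calls. IARS2 went to 0.073 (adjusted p = 0.198 by edgeR) and RARS2 to 0.13 (adjusted p = 0.0457 by edgeR), a call in the other direction. CARS2 was then called higher (0.33), so that 9 were higher and 5 lower. The FARS2 rise was lost without control replicate 2 (0.14), UVC replicate 1 (0.28) or UVC replicate 2 (0.27).

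Some mitochondrial charging steps use further proteins. QRSL1 and GATB encode subunits of the amidotransferase that converts glutamate on glutamine tRNA, a step that follows EARS2, and MTFMT encodes the enzyme that formylates methionine on the initiator tRNA. The UVC change was -0.81 ± 0.07 in EARS2 and -0.77 ± 0.09 in MTFMT, to 57.0 and 58.7% of the control mean. QRSL1 changed by -0.23 ± 0.07, whereas GATB rose by 0.35 ± 0.08. With library totals QRSL1 was called higher (0.19), as GATB was (0.76), and MTFMT was still lower (-0.35).

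What photolyase activity together with its light changed was read from the libraries that all had UVC. Among cytosolic enzymes 15 were higher than after UVC, 2 were lower and 2 were not called, against 79.1% of all tested genes called, 39.2% higher and 39.9% lower. Among mitochondrial enzymes 5 were higher, 8 lower and 2 not called. The medians were 0.36 for the cytosolic set, -0.14 for the mitochondrial set and -0.038 for all tested genes. No member reached a 2-fold change in either direction (the largest log2 rise was 0.99 and the largest fall -0.69), against 14.0% of tested genes for rises and 1.37% for falls. Library totals put the median over all genes at -0.34, with 3324 called higher and 6939 lower, and 8 of the 15 cytosolic rises kept their call: CARS1, EPRS1, GARS1, MARS1, NARS1, RARS1, TARS1 and WARS1. On that scale 5 cytosolic enzymes were called lower. Of the mitochondrial enzymes 4 were then higher and 10 lower, with a median of -0.45.

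The largest rises among abundant members were in enzymes outside the complex. TARS1 rose by 0.99 ± 0.05 (adjusted p = 6.73e-10 by edgeR), WARS1 by 0.96 ± 0.07 and GARS1 by 0.92 ± 0.05, which are 199, 194 and 189% of their UVC means. MARS1 rose by 0.79 ± 0.05 and EPRS1 by 0.66 ± 0.05. PARS2, of low level, rose by 0.99 ± 0.10, from 1.63 and 1.61 to 3.24 and 3.20 scaled cRPKM. FARS2 fell from 5.89 and 5.95 to 3.87 and 3.50 (-0.68 ± 0.10), NARS2 to 3.90 and 3.69 (-0.63 ± 0.07), and AARS2 by 0.69 ± 0.09. In these 3 genes the active-photolyase libraries lay below UVC. QARS1 (-0.35 ± 0.06), LARS1 (-0.20 ± 0.05) and VARS2 (-0.25 ± 0.06) were lower too. The SARS2 fall (-0.48 ± 0.12) was lost without active-photolyase replicate 1 (-0.28), and the CARS2 fall (-0.14 ± 0.06) without UVC replicate 1 (-0.16), UVC replicate 2 (-0.12) or active-photolyase replicate 1 (-0.09). The AARS1 rise (0.15 ± 0.05) was lost without any 1 of the 4 libraries compared (0.13 to 0.16).

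The difference left with active photolyase was read against control. Of the cytosolic enzymes 13 were still lower, none was called higher and 6 were not called by edgeR. At an unadjusted p under 0.05 the number higher was also 0, as it was by DESeq2, while library totals and limma at either pseudocount each called 2. Of the mitochondrial enzymes 8 were lower, 2 higher and 5 not called. Among all tested genes 65.8% were called, 32.9% lower and 33.0% higher. The cytosolic median was -0.29, the mitochondrial median -0.23 and that of all genes 0.012 (0.12 with library totals, with 5228 called higher and 2848 lower). Only WARS2 was lower by 2-fold or more, a size reached by 2.02% of tested genes, and no member was higher by as much (4.06% of tested genes). The comparison shares its control libraries with the first and its active-photolyase libraries with the second, so its values are given beside theirs and not as a further test.

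WARS2 remained at 47.5% of its control mean (-1.08 ± 0.08, adjusted p = 8.20e-08 by edgeR). EPRS1 was at 64.4% (-0.63 ± 0.05) and CARS1 at 64.7% (-0.63 ± 0.05). YARS2, at 8.11 and 8.44 scaled cRPKM, was at 64.9% (-0.62 ± 0.07). IARS2, the mitochondrial isoleucine enzyme, went from 43.7 and 41.7 in control to 33.4 and 33.9 after UVC and on to 27.9 and 29.8 with active photolyase, so it was lower in this group than after UVC alone. TARS1, WARS1 and MARS1 stood at 91.2, 89.8 and 81.3% of control, PARS2 at 97.4% and NARS1 at 102%. AARS2 stayed above control at 153% (0.61 ± 0.10), and TARS2, at 7.13 and 7.15, rose by 0.18 ± 0.07. The TARS2 call was lost without any 1 library other than control replicate 2 (0.13 to 0.18), and the TARS1 call (-0.13 ± 0.05) without any 1 other than control replicate 1 (-0.15 to -0.11). The call of WARS1 (-0.16 ± 0.07, adjusted p = 0.0622) was gained without control replicate 1 (-0.25), and that of QARS1 (0.089 ± 0.06) likewise (0.17). Calls of FARSA (-0.13), VARS1 (-0.14) and CARS2 (-0.17) were lost without active-photolyase replicate 1, and that of VARS1 also without control replicate 2 (-0.11).

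The subunits of the phenylalanine enzyme were followed side by side, and the difference between them was not tested. FARSA, the catalytic subunit, was at 42.7 and 42.2 scaled cRPKM (control), 29.6 and 29.2 (UVC), and 36.5 and 38.8 (active photolyase). FARSB was at 18.1 and 17.2, then 11.8 and 12.2, then 12.04 and 12.6. After UVC both fell (-0.53 ± 0.05 and -0.56 ± 0.05), calls that library totals kept for FARSB (-0.14) and not for FARSA (-0.11, adjusted p = 0.0574). With active photolyase FARSA rose (0.36 ± 0.05), whereas the value of FARSB was 0.036 ± 0.06 (adjusted p = 0.562 by edgeR), and it turned to a called fall with library totals (-0.27). The rise of FARSA also lost its call with library totals (0.050, adjusted p = 0.383).

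For 12 amino acids both the cytosolic and the mitochondrial enzyme were measured, and their ratio within a library does not depend on scaling. The UVC libraries had a lower ratio than both control libraries for 9 of the 12 amino acids, overlapped for histidine, and had a higher ratio for tryptophan and tyrosine. For single genes, the UVC libraries lay wholly below control in 46.1% of those tested and wholly above in 46.4%. The single-gene shares, here and below, are of scaled levels and not of ratios. No share was taken over ratios of other genes. The alanine ratio, AARS1 over AARS2, went from 60.2 and 52.2 in control to 19.4 and 20.4 after UVC, and it was 37.4 and 34.2 in the active-photolyase libraries. The threonine ratio went from 22.3 and 20.96 to 7.90 and 8.04, then 17.1 and 17.6. The tryptophan ratio was 95.7 and 117 in control, 161 and 151 in the UVC libraries and 194 and 206 in those with active photolyase, with no overlap between groups. With active photolyase the ratio was above that after UVC for 10 of 12 amino acids and below for histidine and tyrosine. No pair overlapped between those groups, and 43.6% of single genes lay wholly above and 46.9% wholly below. Against control the ratio was lower for 7, higher for 4 (leucine, asparagine, tryptophan and tyrosine) and overlapping for isoleucine, with 41.5% of single genes wholly above and 40.5% wholly below.

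**Figure D3:**
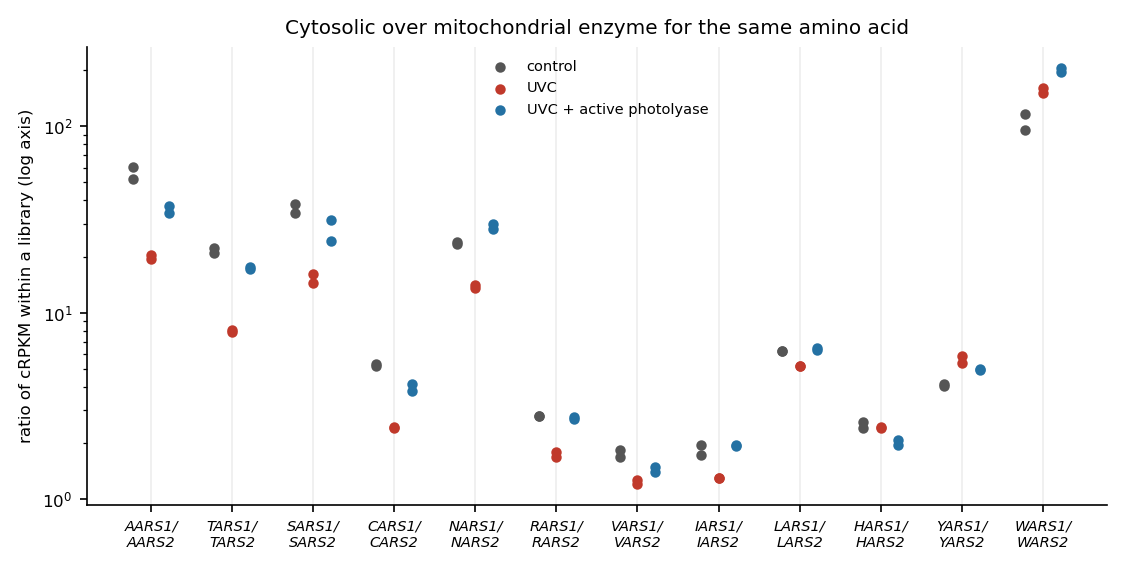
Ratio of cytosolic to mitochondrial enzyme cRPKM within each library (log axis) for 12 amino acids, ordered by the change after UVC, with 2 points per group. The UVC points (red) lie below control (grey) for 9 amino acids, overlap for histidine and lie above for tyrosine and tryptophan.

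HARS1 and HARS2 are neighbours on chromosome 5 and are read in opposite directions from starts that lie close together. The stretch is shown because it holds the shared upstream DNA of a cytosolic and a mitochondrial enzyme. It is from RefSeq promoter windows (GRCh38.p14, chr5:140691361-140691464, + strand), with the 84 bases between the starts in capitals and 10 bases of flank on each side. HARS1 starts to the left of the capitals and reads leftward, and HARS2 starts to their right.
HARS1 and HARS2 shared stretch: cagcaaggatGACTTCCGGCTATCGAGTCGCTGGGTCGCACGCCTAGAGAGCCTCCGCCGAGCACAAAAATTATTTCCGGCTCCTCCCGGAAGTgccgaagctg
HARS1 was at 30.7 and 30.4 scaled cRPKM (control), 19.3 and 18.8 (UVC), and 23.1 and 23.3 (active photolyase). HARS2 was at 11.9 and 12.6, then 8.02 and 7.70, then 11.9 and 11.3. Both fell by a like amount after UVC, HARS1 by 0.68 ± 0.05 and HARS2 by 0.64 ± 0.06 on the log2 scale. With active photolyase HARS1 rose by 0.28 ± 0.05, a value that went to -0.022 with library totals (adjusted p = 0.675), while HARS2 rose by 0.56 ± 0.06. Their ratio was 2.58 and 2.42 (control), 2.41 and 2.44 (UVC), and 1.94 and 2.07 (active photolyase), where both libraries lay below the other 4. The genes are alike in sequence, and their spans overlap in GENCODE release 29, so reads may be divided between them.

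Promoter windows were searched for the composite core bound by C/EBP and ATF factors such as ATF4, TGATGNAA on either strand, with N any base. RefSeq windows (GRCh38.p14, 250 bases before to 50 after a start) were found for 16 of 19 cytosolic and 13 of 15 mitochondrial enzymes, and a gene with several windows was counted once. The core was present in 7 of the 16 cytosolic enzymes (43.8%) and in 1 of the 13 mitochondrial enzymes (7.69%). It was present in 2.73% of 9457 tested genes with a window, in 4.46% of all 27305 genes with a window and in 3.62% of all 35116 windows of this length. Among the amino acid response genes followed below, it was present in 6 of the 20 with a window (30%). The 8 matches in the synthetase genes are shown because 7 of them lie in cytosolic genes. Each is given with 11 bases on either side and the core in capitals, on the strand of the gene.
AARS1, chr16:70289675-70289704, - strand: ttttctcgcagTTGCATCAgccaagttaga
CARS1, chr11:3057407-3057436, - strand: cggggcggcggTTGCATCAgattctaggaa
GARS1, chr7:30594834-30594863, + strand: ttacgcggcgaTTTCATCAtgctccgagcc
IARS1, chr9:92293692-92293721, - strand: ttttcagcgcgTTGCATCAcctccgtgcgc
MARS1, chr12:57488053-57488082, + strand: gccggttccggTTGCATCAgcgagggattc
NARS1, chr18:57621804-57621833, - strand: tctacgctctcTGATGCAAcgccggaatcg
TARS1, chr5:33440956-33440985, + strand: gcgcctttcgaTTGCATCAgctggtccagc
YARS2, chr12:32756076-32756105, - strand: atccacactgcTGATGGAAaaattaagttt
In 6 of the 7 cytosolic genes the N is the C of TGATGCAA (TTGCATCA on the other strand), and GARS1 and YARS2 have other bases there. Counted from the start, the first base of the match is at -187 in AARS1, -33 in GARS1, -13 in IARS1, -4 in MARS1, -2 in CARS1, 3 in TARS1, 15 in NARS1 and -197 in YARS2. Thus 6 of the 7 cytosolic matches lie close to the start. A match is a run of letters and not a measured binding site.

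After UVC all 7 cytosolic genes with a match fell, with a median log2 change of -1.08 (-1.35 in GARS1 to -0.18 in AARS1). Of the 9 cytosolic genes with a window and no match, 8 fell and QARS1 rose, with a median of -0.68 (-1.30 in EPRS1 to 0.44). Of all tested genes 43.1% were called lower and 42.5% higher. With library totals 5 of the 7 with a match fell, AARS1 rose (0.23) and NARS1 was not called (0.018). Of the 9 without, 6 then fell, 1 rose and 2 were not called, beside 3546 lower and 7091 higher of 11926 tested genes. With active photolyase the medians against UVC were 0.57 and 0.36. All 7 with a match rose, against 7 of the 9 without and 39.2% of all tested genes. With library totals these counts were 5 of 7 and 3 of 9, beside 3324 of 11926 tested genes. AARS1 was then called lower (-0.16) and IARS1 was not called (0.055). The ranges of the subsets overlapped in each comparison, and EPRS1 (-1.30 ± 0.05) and WARS1 (-1.11 ± 0.07), with no match in their windows, fell further than the median of the matched genes.

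**Figure D4:**
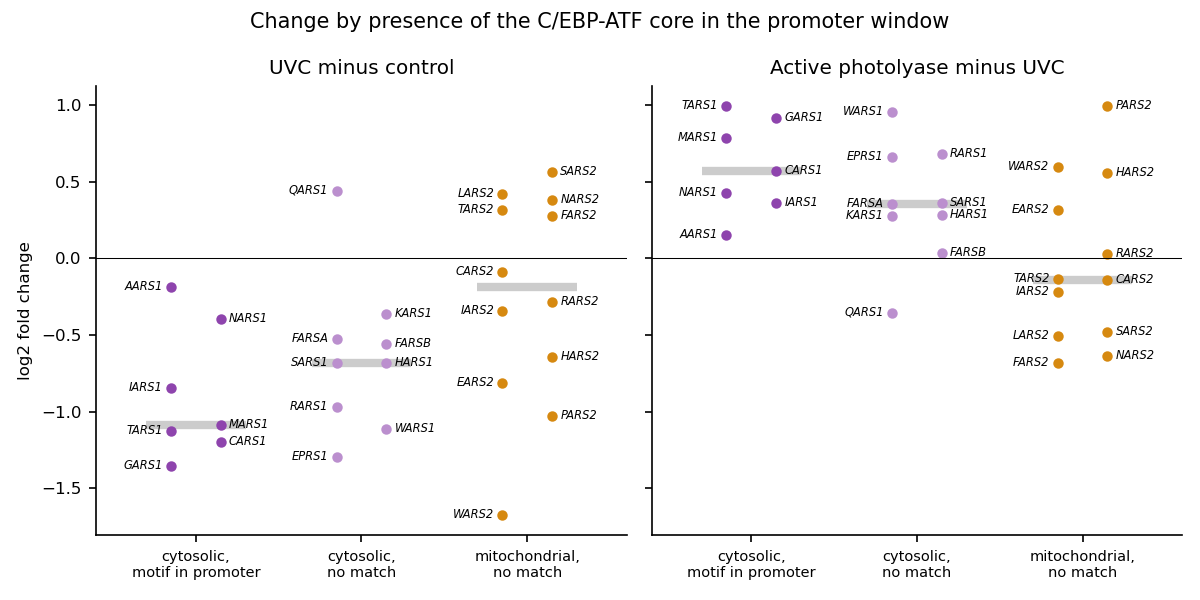
Log2 fold change of the members by compartment and by a match to the core in the promoter window, for UVC against control and active photolyase against UVC, with 1 point per gene that has a window (YARS2 is not drawn) and a grey bar at the median. The 7 cytosolic genes with a match lie between -1.35 and -0.18 after UVC and overlap the 9 without.

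The wider amino acid response was followed through 24 genes of the ATF4 program, of which 23 were tested. After UVC 17 fell and 4 rose, with a median of -0.84, beside 43.1% lower and 42.5% higher of all tested genes. With library totals 13 fell, 7 rose and 3 were not called, with a median of -0.42, beside 3546 lower and 7091 higher of 11926 tested genes. The largest falls were in SLC7A1 (-2.15 ± 0.06), a carrier of cationic amino acids, and MTHFD2 (-2.11 ± 0.05), an enzyme of mitochondrial folate metabolism. SLC7A1 went from 92.8 and 94.2 scaled cRPKM to 20.4 and 21.7. The largest rises were in PSPH (0.72 ± 0.07), which makes serine, and NUPR1 (0.62 ± 0.08), a stress-induced nuclear protein. ATF4 itself was at 500.03 and 473 (control), 380.2 and 379.9 (UVC), and 527 and 519 (active photolyase), a UVC change of -0.36 ± 0.05. That change went to 0.059 with library totals (adjusted p = 0.309 by edgeR), so the direction for ATF4 depended on scaling. With active photolyase 20 of 23 were higher than after UVC and 3 were lower, beside 39.2% higher and 39.9% lower of all tested genes. The median of the 23 was 0.69. With library totals 18 were higher and 3 lower, beside 3324 higher and 6939 lower of 11926 tested genes. The largest rises were in SESN2 (2.09 ± 0.06), a leucine-binding inhibitor of mTORC1 signalling, and MTHFD2 (1.88 ± 0.05). The largest falls were in EIF2AK4 (-0.53 ± 0.05), which encodes GCN2, and PSPH (-0.50 ± 0.07). Against control 7 were higher, 7 lower and 9 not called, with a median of 0.028. That is 30.4% in each direction, near the 33.0% higher and 32.9% lower of all tested genes. With library totals 12 were higher and 5 lower, beside 5228 higher and 2848 lower of 11926 tested genes.

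Relatives of the synthetases were mixed. TARS3, a paralogue of TARS1 whose reads may in part be shared with it, was at 35.1 and 37.2 scaled cRPKM (control), 7.49 and 7.43 (UVC), and 36.2 and 35.9 (active photolyase). Its UVC change was -2.28 ± 0.05, its rise with active photolyase was 2.27 ± 0.05, and its value against control was 0.00 ± 0.05 (adjusted p = 0.962 by edgeR). SEPSECS, which completes selenocysteine on its tRNA, rose after UVC by 0.98 ± 0.12 at a low level (0.620 and 0.724 to 1.24 and 1.41). DTD2, a deacylase that proofreads charged tRNA, rose by 0.45 ± 0.08, while DTD1, with a like role, had a change of -0.25 ± 0.06 that turned to a called rise with library totals (0.16). PSTK, under the filter, ran from 0.554 to 0.734.

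Gene span, from start to end of the GENCODE release 29 annotation (GRCh38), ran from 7.62 kb (PARS2) to 568 kb (FARS2) over the members, with a median of 30.2 kb over all tested genes. Spearman's rho between span and the change after UVC was -0.15 over 34 members and -0.24 over 11728 tested genes with a span. For active photolyase against control it was -0.58 and -0.44. These are descriptions across genes, which share the same libraries and are not independent replicates. After UVC the 3 members of longest span, FARS2, LARS2 (161 kb) and NARS2 (139 kb), were each called higher. Of the 3 of shortest span, PARS2 and HARS2 (7.89 kb) were lower and QARS1 (9.20 kb) was higher. WARS2, next after NARS2 in span at 109 kb, had the largest fall. Against control, active photolyase left FARS2 (-0.41 ± 0.10) and NARS2 (-0.26 ± 0.08) lower, and LARS2 at -0.088 ± 0.07. The NARS2 call was lost without active-photolyase replicate 2 (-0.22), and the FARS2 call without control replicate 1 (-0.25).

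**Figure D5:**
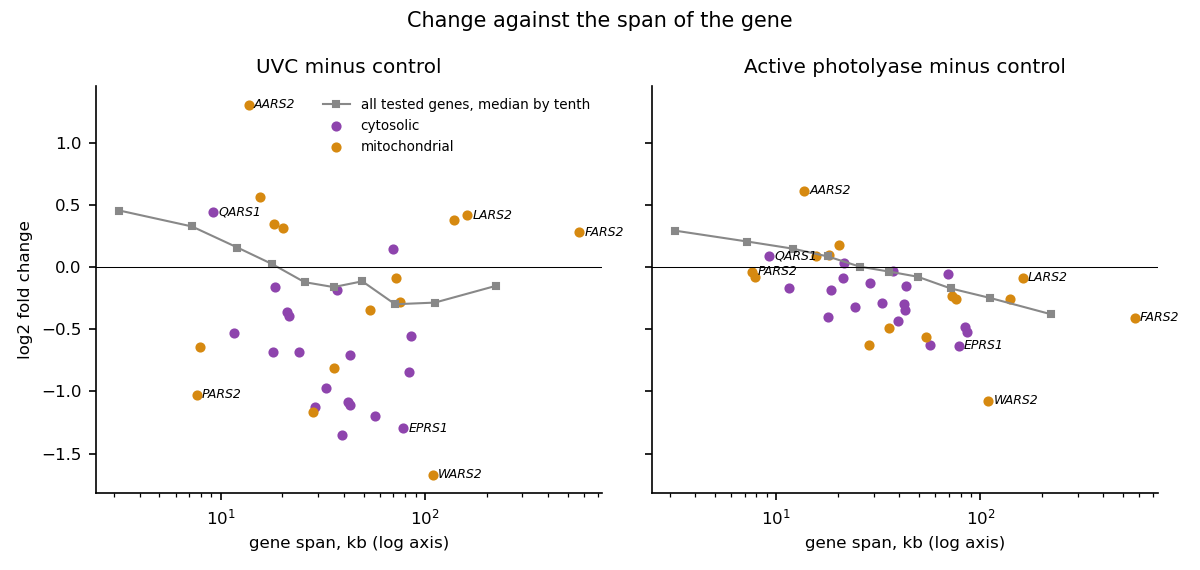
Log2 fold change against gene span (log axis, kb) for 34 members (points) and medians of tested genes in bins of span (grey squares), for UVC and for active photolyase against control. In the second panel members of longer span lie lower (rho -0.58), as the grey medians do, and WARS2 lies lowest.

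Overlapping genes limit single values. In GENCODE release 29, 12 of the 34 members overlap a protein-coding gene: AARS2, CARS2, EARS2, HARS1, HARS2, KARS1, MARS1, SARS2, VARS2, WARS1, YARS1 and YARS2. The use of strand in counting is not given in the sources used here, so reads of these genes and their neighbours may have been mixed.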

How the data were processed

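RNA of 6 HaCaT libraries (3 groups of 2, grouped by the labels) went through Illumina TruSeq library preparation, per the labels' protocols. The submitters' processing notes name Bowtie and the hg19 build, and the counting rule, annotation and use of strand were not found in any label or header. Per library and per Ensembl gene (19847, of which 354 had no value) the authors deposited a whole-number count of reads and a cRPKM, an RPKM they corrected. The deposited count over the deposited cRPKM gave an effective length that differed by at most 0.183% between libraries (6669 genes).

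The test was edgeR's quasi-likelihood F test (version 4.0.16, R 4.3.3), on 3 group means fitted to all 6 libraries, with factors from the trimmed mean of M values (TMM; 0.885 to 1.18). Genes with 1 cRPKM in at least 2 libraries were tested (11926), two-sided, and called at a Benjamini-Hochberg adjusted p under 0.05 over all of them. Each SE is the fold change over the root of F. TMM takes most genes as unchanged, so changes are relative to the bulk of transcripts. Replicates differed by more than counting noise (chi-square per degree of freedom 5.59 to 24.2). The members and lists were chosen with earlier results of these data known, and the division of the cytosolic enzymes by the complex was made after values were seen. Alternatives were library totals, DESeq2 1.42.0, other filters, limma 3.58.1 on log2(cRPKM + 1) or log2(cRPKM + 0.1), a replicate block, and leaving out each library. Full values are given for the 4 largest called changes each way per comparison at a mean of at least 5 cRPKM, for GARS1, KARS1, EPRS1, HARS1, HARS2, WARS1 and WARS2, and for others chosen after their values were seen.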

Additional observations from a re-analysis of the deposited data

How the results depend on the processing

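Library totals and limma on values as deposited shifted all changes together, as the estimated TMM factors (0.885 to 1.18) differed between groups. After UVC, with library totals and with limma at pseudocounts of 0.1 and 1, AARS1 (0.23 in each), CARS2 (0.33, 0.33 and 0.31), IARS2 (0.073, 0.073 and 0.072), KARS1 (0.050 in each), NARS1 (0.018, 0.017 and 0.017), RARS2 (0.13, 0.13 and 0.12) and VARS1 (0.26, 0.25 and 0.23) turned above 0. Median-centring did so for AARS1 (0.10), CARS2 (0.18) and VARS1 (0.10). For active photolyase against UVC, AARS1 (-0.16, -0.16 and -0.15), FARSB (-0.27, -0.27 and -0.25), HARS1 (-0.022, -0.022 and -0.021), KARS1 (-0.028 in each) and RARS2 (-0.28, -0.28 and -0.26) turned below 0, and with median-centring AARS1 (-0.067), FARSB (-0.16) and RARS2 (-0.17). Under library totals and uncentred limma 4 cytosolic enzymes were higher after UVC, 8 were higher and 5 lower with active photolyase against UVC (4 lower with median-centred limma), and 2 were higher against control. Without a filter 1 cytosolic enzyme was higher after UVC. A filter of 5 cRPKM left AARS2, EARS2, LARS2 and PARS2 untested. With it 3 mitochondrial enzymes rose with active photolyase against UVC, since the rises of EARS2 and PARS2 were not among the genes tested. Against control 1 mitochondrial enzyme was higher with that filter, where AARS2 was not tested. One setting without a filter and DESeq2 also gave 1 each.

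Leaving out 1 library gave 1 to 2 cytosolic rises after UVC, and against control 0 to 1 cytosolic and 1 to 2 mitochondrial rises. In every setting run, 12 cytosolic enzymes fell after UVC, 8 rose with active photolyase against UVC and 10 were lower than control. No share of all tested genes called in every setting was taken. In the main fit 43.1% of them were lower after UVC, 39.2% higher with active photolyase against UVC and 32.9% lower than control. For libraries of the same number the correlation of deviations from the group mean was -0.03, -0.05 and 0.12. With 2 libraries per group these values cannot tell whether libraries of the same number were paired. With the replicate block 101 of 102 single-enzyme results kept their call and 1 more was called. MARS2 was not analysed here, and the lowest counts per library limit PARS2 (252), AARS2 (297), SARS2 (334), WARS2 (378) and FARS2 (403). Library totals were also applied, after seeing the data, to the other lists. After UVC AIMP1 (0.26), AIMP2 (0.12), EEF1E1 (0.16), QRSL1 (0.19), DTD1 (0.16) and ATF4 (0.059) turned above 0, and with active photolyase against UVC AIMP1 (-0.24), AIMP2 (-0.13), EEF1E1 (-0.26) and QRSL1 (-0.21) turned below 0.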
